A study of Mus musculus with 16 samples.

Results

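The genes described here encode ligands and receptors of axon guidance, and their transcripts were measured in dorsal root ganglia, the clusters of sensory neuron cell bodies beside the spinal cord. Members were chosen by gene symbol alone. They are the semaphorins of classes 3 to 7, their plexin and neuropilin receptors, the ephrins and their Eph receptors, the Slits and their Robo receptors, and the netrins with the receptors Dcc and Unc5a to Unc5d. This gave 68 of the 53379 gene IDs in each library, 34 of them ligands and 34 receptors. RNA-seq was run on 16 libraries from naive mice aged 8 to 12 weeks. All mice, those behind the IN libraries included, were Nav1.8Cre/Rosa26fstrap animals of C57BL/6J background, and 3 mice of 1 sex were pooled for each of 4 pools per sex. Each pool gave an IP library, of RNA pulled down with the ribosomal fusion protein EGFP-L10a (translating ribosome affinity purification), and an IN library, of total RNA from whole ganglia. The groups were thus female IP, female IN, male IP and male IN, with 4 libraries each. The Scn10a promoter drives Cre, so that the fusion is made in cells that have used this promoter. Scn10a encodes Nav1.8, a sodium channel typical of nociceptors, the neurons that sense painful stimuli.

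Axon guidance ligands are secreted or membrane-bound proteins that attract or repel a growing axon through receptors on its growth cone. Semaphorins act through plexins, with neuropilins as co-receptors of the secreted class 3; ephrins bind Eph receptor tyrosine kinases and can signal back into the cell that carries them; Slits act through Robos, and netrins through Dcc and Unc5 receptors. In the embryo these systems steer the axons of dorsal root ganglion neurons into the spinal cord and the skin, and many of the genes are still expressed in adult neurons, glia and vessels.

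Markers of the labelled cell type were read first. Scn10a was at 381 ± 46.8 scaled TPM in IP libraries and at 125 ± 12.4 in IN libraries (SD, n = 8 each). All 16 nociceptor markers tested were higher in IP, with a median log2 difference of 1.51, where 40.5% of all tested genes were higher. The marker lists were chosen with earlier results of these data known, so they are no independent check. Levels are given as TPM, a measure corrected for transcript length, after a median-of-ratios scaling of the libraries. A log2 difference is IP minus IN of log2(scaled TPM + 1), which understates the change of genes near or below 1 TPM, and its standard error (SE) comes from the model. A gene was called where its limma adjusted p was below 0.05. Most markers of other ganglion cells were lower in IP, where 38.9% of all tested genes were lower. These were 12 of 12 for large-diameter neurons, 11 of 11 for satellite glia, 12 of 12 for myelinating Schwann cells and 10 of 10 for fibroblasts. None of these markers was at 0 in any IP library. Of macrophage markers 8 of 8 tested were lower, and of endothelial and mural markers 11 of 12. The endothelial and mural markers summed to 56.0 to 68.2 scaled TPM in IP and 114 to 130 in IN. The satellite glia markers summed to 165 to 340 in IP and 1096 to 1363 in IN. The share of nuclear protein-coding genes in the deposited TPM was 44.9% to 79.5% in IP libraries and 9.58% to 13.3% in IN libraries, and female pools 2 and 4 had the lowest IP shares (44.9% and 57.6%). TPM keep no read counts, so the read depth is unknown.

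IP was set against IN to ask which of these genes are represented on the ribosomes of Nav1.8 neurons more, or less, than in the whole ganglion. Of the 68 members, 54 reached a mean of 1 deposited TPM in either fraction and were tested. Among them 12 (22.2%) were higher in IP, where 40.5% of all 16099 tested genes were higher, and 37 (68.5%) were lower, where 38.9% of all tested genes were lower. The same shares of all tested genes are to be set beside each family count below. The median log2 difference over the 54 members was -0.59, and over all tested genes it was 0.02. Slit1, Plxnc1 and Sema4f were called with a log2 difference of at least 1, which makes 5.56% of the tested members against 3.11% of all tested genes. A further 17 members were called lower by at least 1 on that scale, which makes 31.5% against 13.0%. All 8 IP values lay above all 8 IN values for 9 members (16.7%, against 22.4% of all tested genes) and below them for 26 (48.1%, against 26.0%). These directions are relative to the median gene. With the deposited TPM unscaled, 42 members were called higher and 5 lower, while the median of all genes was itself shifted by 1.84 and 94.0% of all calls were higher, against 51.0% of calls with scaling. The 5 that stayed lower on that scale were Slit2, Ntn1, Sema3g, Ephb4 and Slit3. Of these, Slit3 reached the mean of 1 deposited TPM in IN libraries alone, which favours a lower call.

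**Figure D1:**
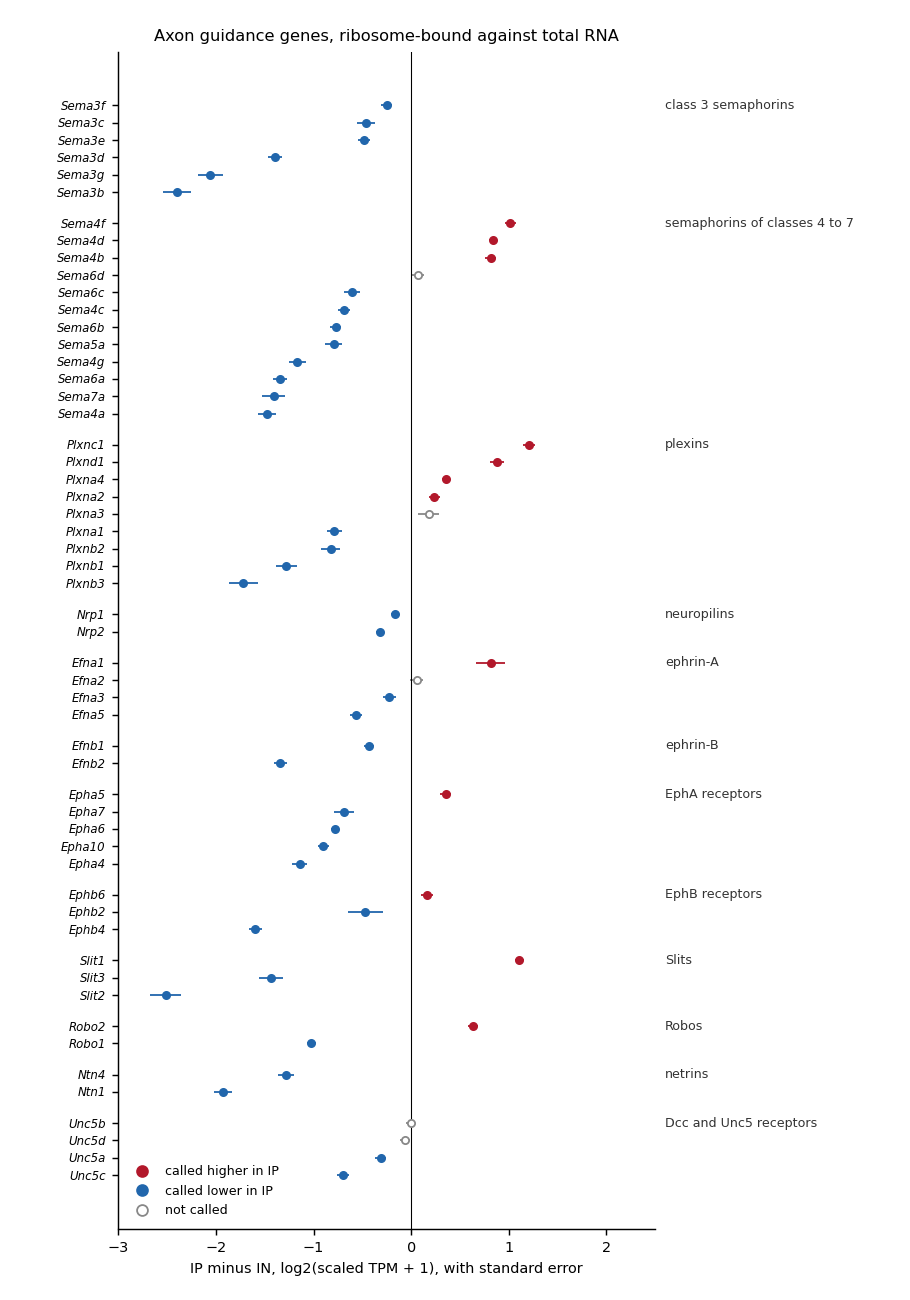
Log2 difference of IP against IN libraries for the 54 tested members, by family, with bars of 1 standard error from limma (horizontal axis, log2 of scaled TPM + 1, 8 pools). Class 3 semaphorins, netrins, Unc5 receptors, ephrin-B genes and neuropilins have no member called higher, and the plexins have 4 higher and 4 lower. With deposited TPM centred on the median gene, Nrp1 and Nrp2 take a positive sign.

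Ligands and receptors were also counted apart. Of 29 ligands tested 5 were higher in IP and 22 lower, with a median log2 difference of -0.69. Of 25 receptors 7 were higher and 15 lower, with a median of -0.32. Among all tested genes 40.5% were higher and 38.9% lower. The summed level of all ligands was lower in each IP library (272 to 312 scaled TPM) than in any IN library (352 to 415). For the receptors the order was the opposite, with sums of 341 to 439 in IP libraries and 284 to 332 in IN libraries. That order rests on Plxnc1, the plexin receptor of Sema7a, and without it the receptor sums were alike, at 241 to 270 in IP libraries (median 256) and 241 to 269 in IN libraries (median 250.4). The order of the ligand sums likewise leans on Sema3b, at 7.31 to 22.1 in IP libraries and 57.9 to 83.3 in IN libraries. Without Sema3b the ligand sums of IP and IN libraries overlapped too. With TPM rescaled over nuclear protein-coding genes the sums of all ligands did not overlap (252 to 301 in IP, 382 to 444 in IN). The sums of all receptors did on that scale (302 to 409 in IP, 304 to 368 in IN). The difference between ligands and receptors was not tested, since members of a list are not replicates. In whole ganglia a lower value can mean fewer cells of a type or less RNA per cell, which cannot be told apart in bulk RNA. IP and IN also differ both in the cells sampled and in the RNA taken, ribosome-bound or total. In a difference between IP and IN these cannot be told apart either.

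Promoter sequences are shown for 4 of the members that moved most, Slit2 and Sema3g (lower in IP) and Plxnc1 and Sema4f (higher in IP), to set the letters upstream of such genes side by side. Each is the 250 bases before the RefSeq gene start on GRCm38.p6, printed 5′ to 3′ on the gene's own strand and credited to RefSeq, with matches to any of 5 searched motifs in capitals. In the deposited files Slit2 and Sema3g start slightly upstream of the RefSeq start, so the last bases of their windows lie inside the gene there. Slit2 lies at chr5:47982905-47983154 on the plus strand, Sema3g at chr14:31217623-31217872 on the plus strand, Plxnc1 at chr10:94944846-94945095 on the minus strand and Sema4f at chr6:82939770-82940019 on the minus strand.
Slit2: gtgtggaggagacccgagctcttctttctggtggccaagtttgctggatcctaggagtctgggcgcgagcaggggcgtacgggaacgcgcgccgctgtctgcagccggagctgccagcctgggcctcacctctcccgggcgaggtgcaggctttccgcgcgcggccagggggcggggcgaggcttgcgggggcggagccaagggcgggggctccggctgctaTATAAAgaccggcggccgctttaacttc
Sema3g: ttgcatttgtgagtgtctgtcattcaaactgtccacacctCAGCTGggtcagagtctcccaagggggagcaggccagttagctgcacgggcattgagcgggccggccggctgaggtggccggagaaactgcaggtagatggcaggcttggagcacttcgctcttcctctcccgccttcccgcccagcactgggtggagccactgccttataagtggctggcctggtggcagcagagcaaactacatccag
Plxnc1: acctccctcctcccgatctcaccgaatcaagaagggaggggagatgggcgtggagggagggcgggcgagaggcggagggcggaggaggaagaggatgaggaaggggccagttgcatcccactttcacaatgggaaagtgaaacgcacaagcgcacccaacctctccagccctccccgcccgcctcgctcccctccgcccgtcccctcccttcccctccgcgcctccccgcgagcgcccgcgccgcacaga
Sema4f: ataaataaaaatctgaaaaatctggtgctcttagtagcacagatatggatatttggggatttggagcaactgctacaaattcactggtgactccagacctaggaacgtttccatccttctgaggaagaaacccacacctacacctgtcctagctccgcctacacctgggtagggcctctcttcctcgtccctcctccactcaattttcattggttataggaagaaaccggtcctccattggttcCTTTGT
Capitals mark a TATA box (TATAAA) in Slit2, an E-box (CAGCTG) in Sema3g and, on the opposite strand, the SOX letters ACAAAG in Sema4f, and Plxnc1 held none of the 5 motifs. The Slit2 and Plxnc1 windows are rich in CpG (observed over expected 0.848 and 0.752), and those of Sema3g and Sema4f less so (0.352 and 0.311), against a median of 0.374 over all 32851 windows.

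RefSeq windows were held for 58 of the 68 members, 10 of them called higher in IP and 32 called lower. Both strands were searched, and no motif contains another. The E-box letters were found in 2 of the 10 higher and 6 of the 32 lower members, against 13.0% of all windows. RUNX letters (TGTGGT) were found in 0 higher and 2 lower members (14.0% of all windows), and the TATA box in 0 higher and 2 lower members (12.4%). The SOX letters were in 1 higher and 2 lower members (16.5%), and the cyclic AMP response element (TGACGTCA) in none of either (1.55%). Median CpG observed over expected was 0.702 in the higher and 0.695 in the lower members. A match to so few letters describes the window and is no evidence of binding.

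Slits and Robos both held genes that rose in IP and genes that fell. Slit1 (chr19:41600257-41743665, minus strand, GRCm38), a secreted ligand of the Robos, was at 50.6 to 63.0 scaled TPM in IP libraries (median 56.3) and at 23.6 to 27.7 in IN libraries (median 25.5), with no overlap. Its log2 difference was 1.11 ± 0.049 (SE, limma adjusted p = 4.6e-08), higher in 8 of 8 pools. Slit2 (chr5:47983138-48307733, plus strand), the ligand whose promoter carries the TATA box above, had the most negative difference of all members. Its IP values ran from 1.27 to 5.06 (median 2.14) and its IN values from 17.0 to 21.05 (median 18.7), a log2 difference of -2.52 ± 0.16 (limma adjusted p = 2.5e-07). Slit3 also fell, with 0.177 to 1.51 in IP against 2.43 to 3.59 in IN (log2 -1.44 ± 0.13). It was tested only because of its IN values, which alone reached the low-value filter, so its selection favoured a fall. Slit1 thus made up 94.7% ± 3.08 of the summed Slit TPM in IP libraries and 54.3% ± 2.52 in IN libraries (SD, n = 8 each).

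Robo2 (chr16:73892306-74411825, minus strand) was the leading Slit receptor in both fractions. It was at 45.7 to 61.9 scaled TPM in IP libraries (median 53.6) and at 31.4 to 37.5 in IN libraries (median 35.3), and the ranges did not meet. The log2 difference was 0.63 ± 0.053 (limma adjusted p = 1.6e-06), higher in 8 of 8 pools. Robo1 (chr16:72663149-73046095, plus strand), the other tested Robo, went the opposite way. It was at 1.76 to 2.88 in IP (median 2.01) and at 4.48 to 5.94 in IN (median 5.24), with a log2 difference of -1.02 ± 0.048 (limma adjusted p = 5.2e-08), lower in 8 of 8 pools. Robo2 made up 95.9% ± 0.689 of summed Robo TPM in IP and 84.1% ± 1.32 in IN.

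**Figure D2:**
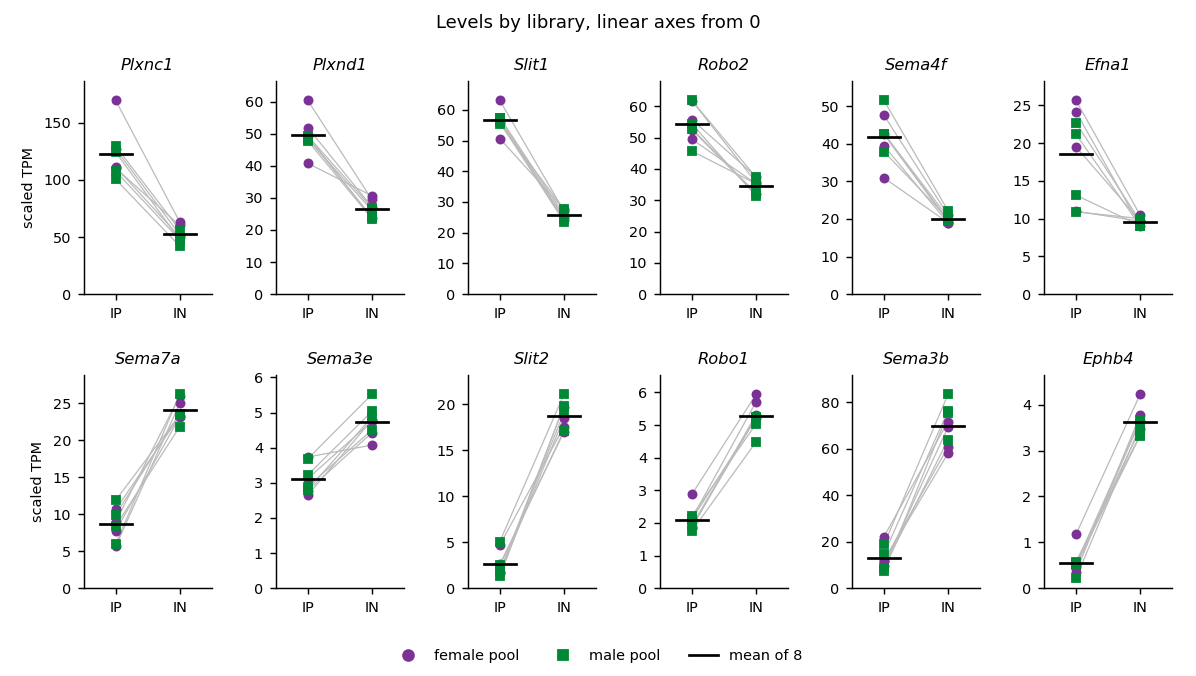
Scaled TPM of 12 members in each library (vertical axis, linear from 0 and scaled per panel), with IP libraries left of IN libraries and female and male pools marked. Plxnc1, Plxnd1, Slit1, Robo2, Sema4f and Efna1 are higher in IP, and in each of the other 6 panels shown all 8 IP values lie below the 8 IN values.

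Class 3 semaphorins, the secreted ligands of neuropilin and plexin complexes, were lower in IP in 6 of 6 tested members, and they kept that sign under each of the other scalings that remove the shift of the median gene. Sema3b (chr9:107597674-107609229, minus strand) was the most abundant member of all in IN libraries. It was at 7.31 to 22.1 in IP (median 11.8) and at 57.9 to 83.3 in IN (median 70.5), a log2 difference of -2.40 ± 0.14 (limma adjusted p = 1.6e-07) seen in 8 of 8 pools. Its share of all class 3 TPM was 39.2% ± 8.18 in IP and 64.4% ± 3.09 in IN. Sema3g followed, with 0.617 to 2.59 in IP against 8.34 to 9.77 in IN (log2 -2.06 ± 0.13). Sema3d was at 1.85 to 3.57 in IP and at 6.33 to 9.80 in IN (log2 -1.39 ± 0.072). Smaller falls were measured for Sema3e, a ligand of plexin D1 (-0.49), Sema3c (-0.46) and Sema3f, a ligand of neuropilin 2 (-0.25), and with quantile normalization these 3 were no longer called.

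Among semaphorins of classes 4 to 7, which are held in the membrane, 3 of 12 tested were higher in IP and 8 lower. Those that rose were all of class 4. Sema4f (chr6:82911885-82939769, minus strand) was at 30.9 to 51.5 in IP (median 42.6) and at 18.9 to 22.2 in IN (median 19.8), a log2 difference of 1.01 ± 0.057 (limma adjusted p = 1.1e-07). Sema4d, a ligand of plexin B1, was at 19.8 to 26.4 in IP and at 11.3 to 14.5 in IN (log2 0.83), and Sema4b at 17.4 to 26.1 in IP and at 10.4 to 13.1 in IN (log2 0.81). None of these 3 overlapped between the fractions.

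The other class 4 members fell. Sema4a (chr3:88435959-88461182, minus strand) had the largest fall, with 0.482 to 1.66 in IP (median 0.802) against 3.31 to 5.13 in IN (median 4.09). Its log2 difference was -1.47 ± 0.094 (limma adjusted p = 2.2e-07), lower in 8 of 8 pools. Sema4g fell by 1.17 and Sema4c by 0.69 on the log2 scale. Sema7a, the member held by a lipid anchor and a ligand of plexin C1, was at 5.64 to 11.9 in IP and at 21.9 to 26.2 in IN (log2 -1.41 ± 0.12, limma adjusted p = 1.7e-06). Sema5a, a transmembrane semaphorin with thrombospondin repeats, was abundant in both fractions, at 16.5 to 26.4 in IP and 29.0 to 44.8 in IN (log2 -0.79 ± 0.088). Class 6 members ranged in log2 difference from -1.35 for Sema6a through -0.77 for Sema6b and -0.61 for Sema6c to 0.07 for Sema6d, which was not called (limma adjusted p = 0.30) at 22.1 to 25.8 in IP and 19.0 to 25.9 in IN.

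Plexins, the signalling receptors of semaphorins, were divided, with 4 of 9 genes higher in IP and 4 lower. That split is near that of all tested genes, of which 40.5% were higher and 38.9% lower. Plxnc1 (chr10:94790866-94944835, minus strand), the receptor of Sema7a, had the largest positive difference of all members. It was at 100 to 169 in IP (median 118) and at 41.9 to 63.0 in IN (median 51.1), a log2 difference of 1.21 ± 0.059 (limma adjusted p = 5.6e-08) in 8 of 8 pools. Its IP range lay above that of every other member. Plxnd1 (chr6:115954811-115995005, minus strand), the receptor of Sema3e, was at 40.8 to 60.4 in IP and at 23.6 to 30.7 in IN (log2 0.88 ± 0.068, limma adjusted p = 8.1e-07). In both of these ligand and receptor pairs the receptor was higher in IP and the ligand lower, though the Sema3e call was lost with quantile normalization. For Sema4d and its receptor gene Plxnb1 the ligand was higher and the receptor lower. Some other pairs among the members moved together. Slit1 and Robo2 were both higher, while Sema5a and Plxnb3, Efnb2 and Ephb4, and Ntn1 and Unc5c were each both lower.

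A smaller rise was measured for Plxna4 (log2 0.36), which forms receptors with neuropilins, at 17.4 to 24.8 in IP and 14.7 to 19.1 in IN. Plxna2 rose by 0.24 and was higher in 7 of 8 pools, a call that was lost with quantile normalization and with TPM rescaled over protein-coding genes. Plxna1 fell by 0.79, without overlap, although a gene on the opposite strand covers 10.7% of its exonic bases and the strand setting of the counting is not given. All 3 tested class B plexins fell. Plxnb3 (chrX:73757090-73772514, plus strand), a receptor of Sema5a, was at 0.312 to 2.58 in IP (median 0.856) and at 4.83 to 6.53 in IN (median 5.68), a log2 difference of -1.72 ± 0.15 (limma adjusted p = 1.7e-06). Plxnb1 and Plxnb2 fell by 1.28 and 0.82 on the log2 scale. Plxna3 was at 3.94 to 8.22 in IP and 3.72 to 5.21 in IN and was not called (limma adjusted p = 0.15).

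The neuropilins, which bind class 3 semaphorins, changed little. Nrp1 (chr8:128358604-128503363, plus strand) was at 18.6 to 23.4 in IP (median 21.5) and at 20.6 to 26.7 in IN (median 24.1), a log2 difference of -0.16 ± 0.044 (limma adjusted p = 0.0059) with overlapping ranges. Nrp2 (chr1:62703285-62818695, plus strand) was at 14.1 to 16.4 in IP (median 14.5) and at 16.8 to 20.4 in IN (median 18.6), a log2 difference of -0.32 ± 0.041 (limma adjusted p = 3.9e-05). The direction of both depends on the scaling, because with deposited TPM centred on the median gene the differences were 0.24 for Nrp1 and 0.06 for Nrp2.

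Ephrins gave 1 rise and 4 falls among 6 tested. Efna1 (chr3:89271733-89281142, minus strand), which is tied to the membrane by a lipid anchor and binds EphA receptors, was at 10.9 to 25.6 in IP (median 20.3) and at 9.01 to 10.5 in IN (median 9.68). Its log2 difference was 0.82 ± 0.15 (limma adjusted p = 0.00048), higher in 8 of 8 pools. The IP values of Efna1 fell apart into lower ones in female pool 1, male pool 1 and male pool 2 (10.98, 10.9 and 13.1) and higher ones in the other 5 pools (19.5 to 25.6), while the IN values differed little. Efna5 (chr17:62604184-62881317, minus strand) fell, with 5.63 to 8.93 in IP (median 6.36) and 8.35 to 13.1 in IN (median 10.4), a log2 difference of -0.56 ± 0.060 (limma adjusted p = 9.3e-06). Efna2 was not called (limma adjusted p = 0.47), and Efna3 fell by 0.23 at values near 1 TPM, with a gene on the opposite strand over 14.1% of its exonic bases.

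The transmembrane ephrins Efnb1 and Efnb2, ligands of EphB receptors, were both lower in IP. Efnb2 (chr8:8617434-8661242, minus strand), which also binds Ephb4, was at 3.11 to 5.28 in IP (median 3.70) and at 10.2 to 12.2 in IN (median 11.2), a log2 difference of -1.34 ± 0.067 (limma adjusted p = 6e-08). Efnb1 (chrX:99136130-99148991, plus strand) was at 4.61 to 7.48 in IP (median 5.59) and at 7.38 to 9.70 in IN (median 7.95), with overlap of the fractions but a lower value in each pool (log2 -0.43 ± 0.055, limma adjusted p = 3.2e-05).

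Eph receptors were mostly lower in IP, with 4 of 5 EphA and 2 of 3 EphB genes called lower and 1 of each called higher. Epha5 (chr5:84054761-84417382, minus strand) was at 5.60 to 7.68 in IP (median 6.53) and at 4.57 to 5.41 in IN (median 4.97), a log2 difference of 0.35 ± 0.060 (limma adjusted p = 0.00031) in 8 of 8 pools. Epha4 (chr1:77367185-77515088, minus strand), which binds ephrins of both classes, was at 0.529 to 1.16 in IP (median 0.683) and at 2.13 to 3.83 in IN (median 2.83), a log2 difference of -1.14 ± 0.074 (limma adjusted p = 2.5e-07). Epha6, the second most abundant EphA in IP after Epha5, fell by 0.78 (5.06 to 5.79 in IP and 9.14 to 10.7 in IN). Epha10, a receptor without kinase activity, fell by 0.90 and Epha7 by 0.69.

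In the EphB family the largest change was that of Ephb4 (chr5:137350109-137378669, plus strand), known from veins as the receptor of ephrin-B2. It was at 0.224 to 1.17 in IP (median 0.515) and at 3.32 to 4.22 in IN (median 3.58), a log2 difference of -1.60 ± 0.069 (limma adjusted p = 4.4e-08). Ephb6 (chr6:41605482-41620509, plus strand), a receptor without kinase activity and the most abundant Eph gene in both fractions, was at 12.1 to 14.9 in IP (median 13.4) and at 10.5 to 12.8 in IN (median 11.7). Its log2 difference of 0.16 ± 0.059 (limma adjusted p = 0.026) was positive in 6 of 8 pools, was lost when any of 5 pools was left out and became -0.06 with TPM rescaled over protein-coding genes. Ephb2 fell by 0.47 (limma adjusted p = 0.035), with a lower value in 6 of 8 pools, and this call was lost when any of 4 pools was left out.

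Both netrins tested were lower in IP. Ntn1 (chr11:68209364-68400823, minus strand), the secreted ligand of Dcc and the Unc5 receptors, was at 0.413 to 2.24 in IP (median 0.798) and at 5.17 to 7.78 in IN (median 6.07), a log2 difference of -1.93 ± 0.095 (limma adjusted p = 5.8e-08). Ntn4, which also binds laminin, was at 0.512 to 1.88 in IP and 3.10 to 4.57 in IN (log2 -1.28 ± 0.086). Of the netrin receptors, Unc5c (chr3:141465216-141834924, plus strand) was at 2.05 to 3.73 in IP (median 2.82) and at 4.72 to 5.66 in IN (median 5.30), a log2 difference of -0.70 ± 0.063 (limma adjusted p = 2.6e-06). Unc5a fell by 0.31, a sign that turned with quantile normalization (0.13). Unc5b, at 1.54 to 1.95 in IP and 1.62 to 2.001 in IN, and Unc5d, at 0.510 to 0.779 in IP and 0.693 to 0.856 in IN, were not called (limma adjusted p = 0.92 and 0.26).

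The 14 members below the filter were Dcc, Efna4, Efnb3, Epha1, Epha2, Epha3, Epha8, Ephb1, Ephb3, Ntn5, Robo3, Robo4, Sema3a and Sema5b. Epha1 was listed at 0 in all 16 libraries. For 10 of the 14, all 8 IN values lay above all 8 IP values. The same held for 26.0% of the 16099 tested genes, which is not a like base, and the share among genes below the filter was not computed. The filter was set on deposited TPM, and the scaling divides by 1.65 to 2.69 in IP and by 0.375 to 0.532 in IN. A gene below the filter can thus reach higher scaled TPM in IN than in IP, so the count is no result about these members. Dcc, the receptor through which netrins attract axons, reached no more than 0.0428 scaled TPM in IP libraries and 0.237 to 0.575 in IN libraries. Sema3a, a repellent of embryonic sensory axons, reached at most 0.0775 in IP and 0.183 to 0.388 in IN. Efnb3 reached at most 0.397 in IP and 1.31 to 2.67 in IN, and Ephb3 at most 0.721 in IP and 1.78 to 2.46 in IN. With no filter, 12 of the 14 were called lower and Robo3 higher, among 35913 genes of which 39.3% were lower and 19.2% higher. Robo3 was near 0 and overlapped, at 0 to 0.0844 in IP and 0 to 0.0837 in IN (log2 0.033, limma adjusted p = 0.038). The filter itself bears on these counts, because 7 of the 54 tested members passed through IP alone (0 called higher and 4 lower) and Slit3 through IN alone.

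**Figure D3:**
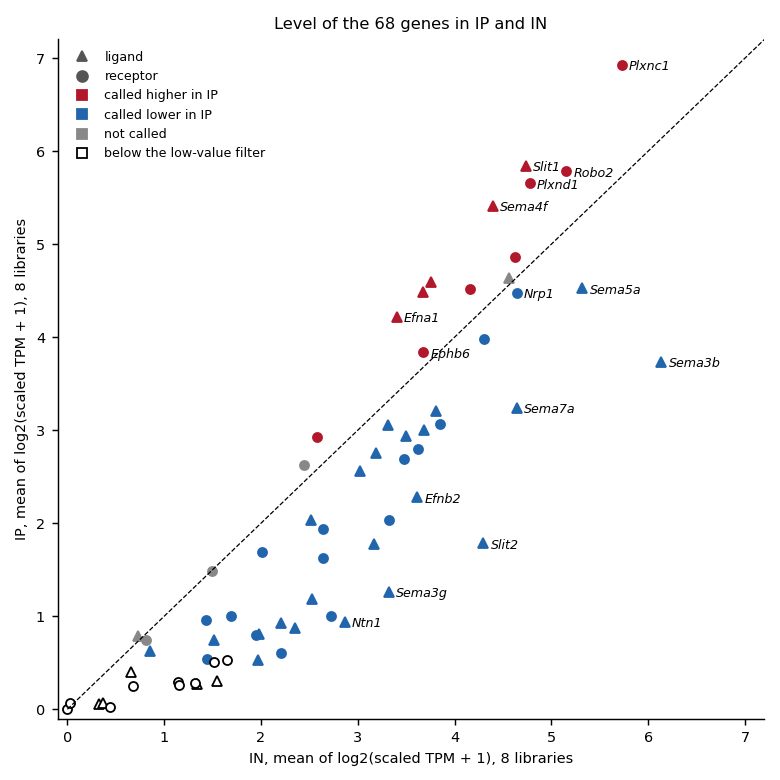
Mean log2(scaled TPM + 1) over 8 libraries of the 68 members in IP (vertical axis) against IN (horizontal axis), with the line of equal levels. Plxnc1 stands highest in IP and Sema3b highest in IN, and members below the filter lie at the lower left.

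By level in IP, Plxnc1 came first (122 ± 21.6 scaled TPM) and its range met no other. Slit1 (56.5 ± 3.40), Robo2 (54.3 ± 5.58), Plxnd1 (49.6 ± 5.41) and Sema4f (41.9 ± 6.20) followed, each overlapping the next. Next came Plxna2, Sema6d, Sema4d, Sema5a, Plxna4, Sema4b and Nrp1, with means between 28.2 and 21.4 and overlapping ranges. In IN libraries the order began with Sema3b (69.8 ± 8.59) and Plxnc1 (52.3 ± 7.06), which overlapped, then Sema5a (39.3 ± 5.50) and Robo2 (34.6 ± 2.42). Since TPM are per length, these levels can be compared between genes.

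Values also moved with single pools. Of the 37 members lower in IP, 20 had their highest IP value in female pool 2 and 9 in male pool 2, and of the 12 members higher in IP, 5 had their lowest IP value in female pool 2 and 4 in male pool 2. In the IP of female pool 2 the 11 satellite glia markers summed to 340 scaled TPM, the top of the range of 165 to 340 in IP libraries (1096 to 1363 in IN libraries), and 0 of the 11 were at 0. The median log2 difference of these markers was -1.72 in female pool 2 and -2.51 to -3.40 in the other pools. For the nociceptor markers it was 1.08 in female pool 2 and 1.52 to 1.71 elsewhere, with sums of 3149 to 4462 in IP libraries and 1229 to 1472 in IN libraries. Slit2 shows the spread, at 4.70 in the IP of female pool 2, 5.06 in that of male pool 2 and 1.27 to 2.58 in the other 6. The part of these cells in the results on members was not tested. Without female pools 2 and 4, 12 members were still called higher and 36 lower.

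**Figure D4:**
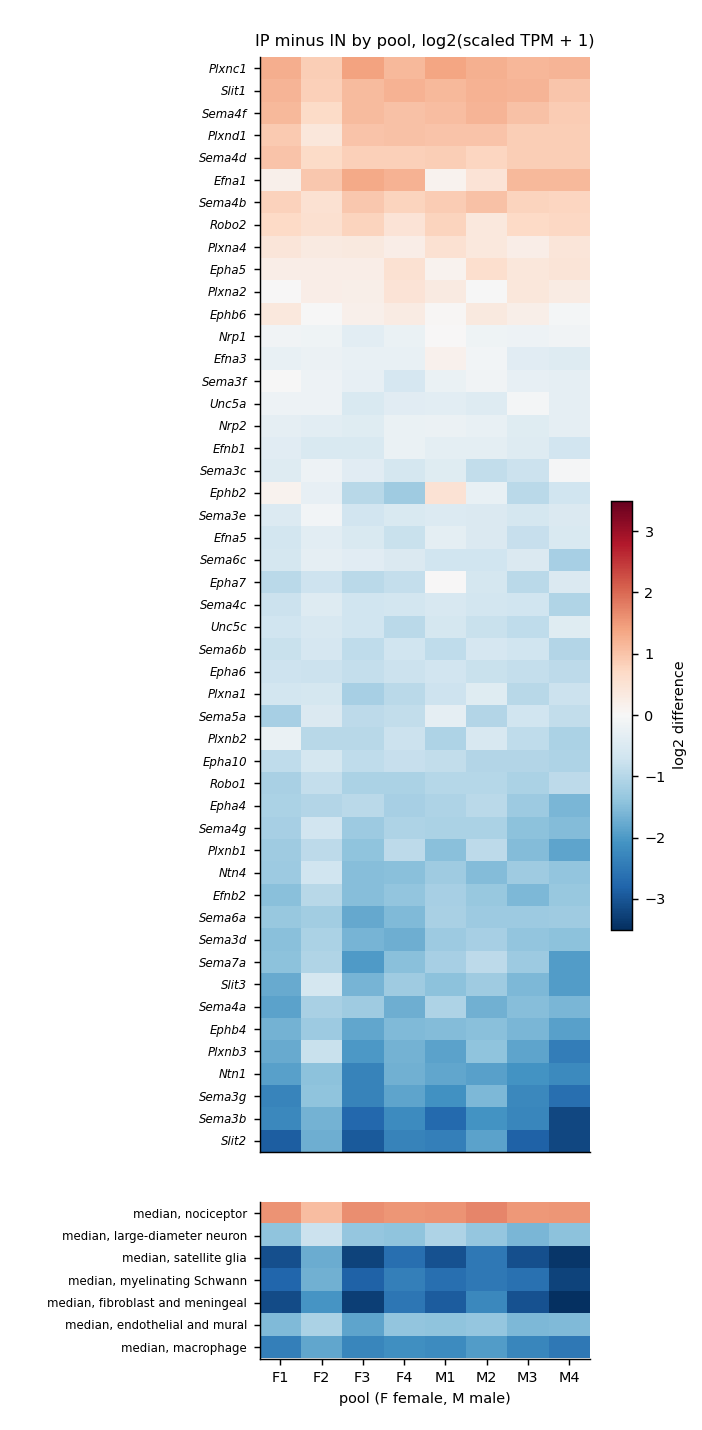
Log2 difference of IP against IN in each of the 8 pools for the 49 called members, with the medians of the nociceptor, satellite glia and other marker lists in the same pools. The sign was the same in all 8 pools for 10 of the 12 higher and 33 of the 37 lower members. They were called from these same pools, which favours a like sign, and the share among all called genes was not computed. Of the 37 lower members, 20 had their highest IP value in female pool 2.

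Taken by sex, 10 members were higher and 35 lower in IP in female pools (of all genes 32.6% were higher and 33.3% lower), and 11 were higher and 34 lower in male pools (35.3% and 35.1%). Of these, 10 were higher and 33 lower in both sexes, and 0 were called in opposite directions. Efna3 and Nrp1 were called in female pools only, and Sema3f and Plxna2 in male pools only. Each of these 4 had the same sign in the other sex. For example, Nrp1 had log2 differences of -0.22 in female pools and -0.11 in male pools. The interaction of sex and fraction tests that difference directly, and it called 0 of 54 members (0.0186% of all tested genes were called). An unadjusted p below 0.05 was found for 0 members and for 448 of all 16099 tested genes. The 3 with the smallest p, none past the threshold, were Sema6c (0.30 ± 0.14), Epha10 (0.20 ± 0.096) and Epha7 (-0.35 ± 0.19), as female minus male log2 difference.

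Female and male pools were also compared within each fraction. In IP, 0 of 53 tested members were called in limma (0.0507% of all 15776 tested genes were), and 0 had an unadjusted p below 0.05 (363 of all tested genes had). Female minus male log2 differences ran from -0.24 to 0.38, with SE of 0.0667 to 0.334. The 3 with the smallest p, all with a limma adjusted p of 0.99987, were Sema6a, Ntn1 and Plxnb2. Sema6a was at 0.940, 1.57, 0.944 and 0.946 in female IP libraries and at 1.33, 1.31, 1.75 and 1.49 in male IP libraries (log2 -0.24, 95% confidence interval -0.50 to 0.02). Female values of Sema6a lay below all male values except in female pool 2. Ntn1 was at 1.02, 2.24, 0.677 and 1.08 in female IP libraries and at 0.743, 0.791, 0.806 and 0.413 in male IP libraries (log2 0.38, interval -0.05 to 0.81). Plxnb2 was at 4.99 to 9.63 in female IP libraries and 4.72 to 6.13 in male IP libraries (log2 0.24, interval -0.14 to 0.61). Medians of the fibroblast and satellite glia markers were higher in female IP by 0.32 and 0.20 on the log2 scale, with 0 of 10 and 0 of 11 called, and their part in these values was not tested.

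In IN, 0 of 47 tested members were called between the sexes (0.0824% of all 13345 tested genes were), and the differences ran from -0.27 to 0.23. An unadjusted limma p below 0.05 was found for 4 of the 47 members and for 635 of the 13345 genes. The 3 members with the smallest p are given next, and the share of all genes without overlap between the sexes was not computed. Sema4g was at 2.76, 2.69, 2.56 and 2.55 in female IN libraries and at 3.12, 3.27, 3.45 and 3.26 in male IN libraries. All female values of Sema4g lay below all male values, and the log2 difference was -0.23 ± 0.059 (limma adjusted p = 0.89). Plxnb3 was at 4.83, 5.09, 5.66 and 4.97 in female IN libraries and at 5.71, 6.53, 6.38 and 5.99 in male IN libraries, again without overlap (log2 -0.22 ± 0.066, limma adjusted p = 0.96). Sema3d ran the other way, at 8.24 to 9.80 in female IN libraries and 6.33 to 8.10 in male IN libraries (log2 0.23 ± 0.086, limma adjusted p = 0.96). Cell type markers also differed in level between these libraries. The 11 satellite glia markers summed to 1096 to 1269 scaled TPM in female IN libraries and 1304 to 1363 in male IN libraries, and the 12 markers of large-diameter neurons to 564 to 637 in female and 665 to 696 in male IN libraries, both without overlap. Over single markers the median log2 difference was -0.10 for large-diameter neurons but 0.02 for satellite glia, opposite in sign to the sum. The myelinating Schwann cell markers overlapped, at 2502 to 3206 in female and 2840 to 3710 in male IN libraries, with a median log2 difference of -0.22. No marker of these 3 lists was called or at 0, and their part in the values of Sema4g, Plxnb3 and Sema3d was not tested.

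**Figure D5:**
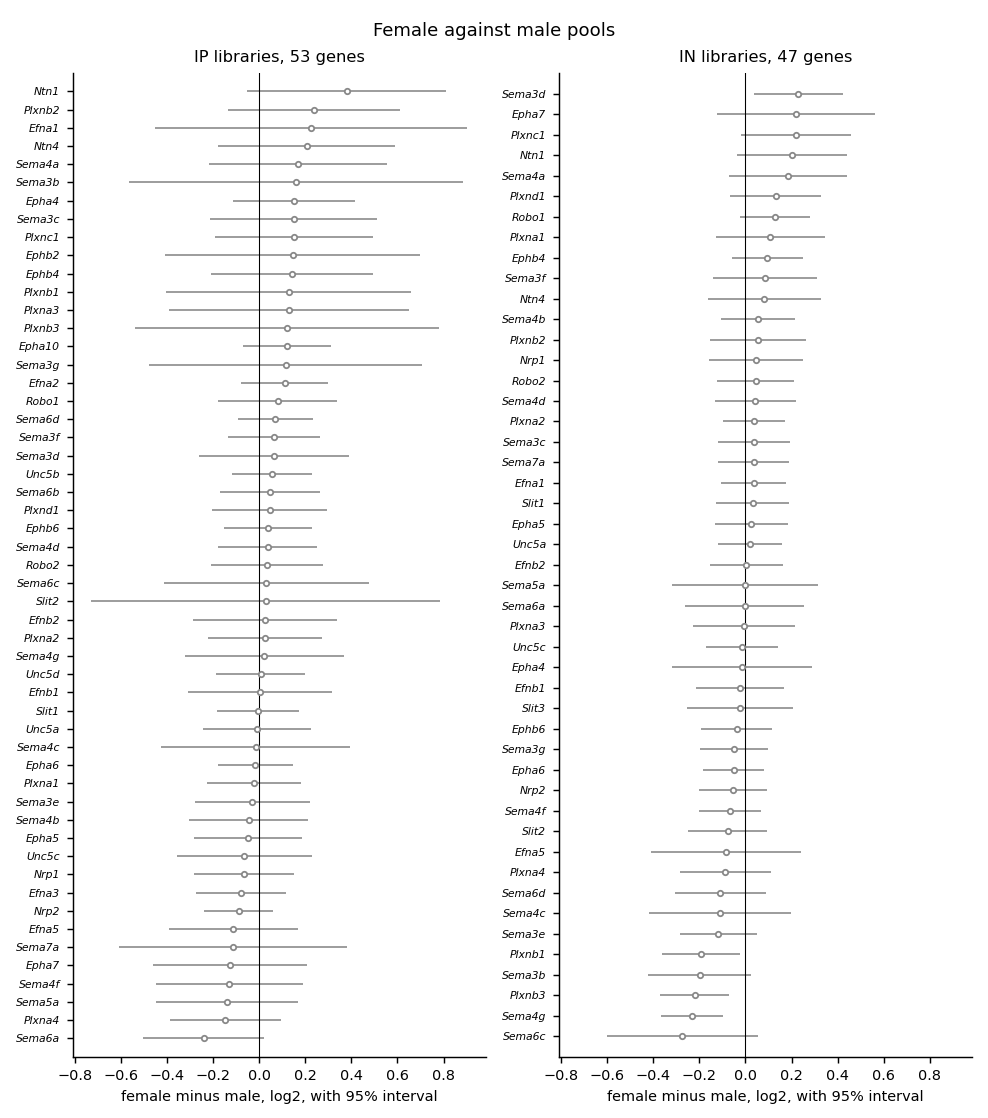
Female minus male log2 difference with 95% confidence intervals for the 53 members tested in IP and the 47 tested in IN. No member was called in either fraction, and the SE reached 0.334 in IP and 0.151 in IN.

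Other genes of these pathways were read from lists of further cues, adhesion co-receptors and signalling proteins. Of 114 genes listed 107 were tested, and 46 were higher in IP and 49 lower, with a median log2 difference of -0.02. Of all 16099 tested genes 40.5% were higher and 38.9% lower, the shares to set beside these and the list counts below. The lists were not tested as sets. L1cam, an adhesion protein that forms a complex with neuropilin 1, had the largest rise (197.5 to 246 scaled TPM in IP and 80.9 to 105 in IN, log2 1.27 ± 0.065, limma adjusted p = 6.8e-08). Gap43, a growth cone protein, was at 90.3 to 122 in IP and 46.7 to 54.3 in IN (log2 1.11). Rras, a small GTPase on which plexins act, was at 21.9 to 33.1 in IP and 11.6 to 14.7 in IN (log2 1.09). The most negative differences were those of the chemokine Cxcl12 (0.197 to 2.82 in IP and 12.0 to 16.5 in IN, log2 -2.88), of Prrg4 (-2.30) and of netrin-G1, encoded by Ntng1 (-2.29). By list, semaphorin and plexin effectors had 10 of 19 tested genes higher and 8 lower (median 0.28). Eph effectors had 4 of 14 higher and 8 lower (median -0.59), netrin effectors 3 of 10 higher and 7 lower (median -0.32), and Slit and Robo effectors 5 of 11 higher and 4 lower (median -0.01).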

How the data were processed

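Ganglion RNA was extracted with a Direct-zol kit and depleted of ribosomal RNA before library preparation, per the labels' protocols. FastQC, STAR 2.2.1, StringTie 1.3.5 and the build GRCm38.p5 are named in the submitters' processing notes, while the annotation release and the use of strand are stated nowhere in them. The authors deposited 1 value per gene, taken here to be TPM because each library adds up to the constant total that defines TPM. Tests made for counts were not used, since TPM keep none and depth is unknown.

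Entries of 1 gene ID were summed and the 92 ERCC entries left out. TPM were scaled by the median of ratios over 15907 genes (factors 1.65 to 2.69 for IP, 0.375 to 0.532 for IN), which assumes that the median gene is alike in both fractions, and log2 was taken after adding 1. Genes with a mean of at least 1 deposited TPM over the 8 IP or the 8 IN libraries were tested, and for female against male over the 8 libraries of the fraction. Limma 3.58.1 in R 4.3.3 was used (intensity trend, two-sided, Benjamini-Hochberg adjustment over all genes tested), with the pool as a block in IP against IN and in the interaction, and the fit was tested on simulated data. Reading and figures used Python 3.11.15, pandas 2.3.3, numpy 2.4.6 and matplotlib 3.10.9, and exon overlaps GENCODE M21. No libraries held identical values (0 pairs).

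IP and IN of a pool come from the same mice, per the series design text. Deviations from the group means of same-numbered libraries correlated across genes at 0.0136, 0.116, 0.198 and 0.414 in female and 0.00665, 0.276, 0.208 and 0.323 in male pools. In female pool 1 and male pool 1 another pool of the sex correlated more (0.0191 and 0.201), so in these the pairing rests on the design text alone, and genes are not independent replicates.

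Members and lists were chosen with earlier results of these data known. Described in full, per family, were the called members with the largest positive and most negative difference and the member highest in IP, and, between the sexes, the 3 with the smallest p. Other members are given by level or difference, and the pathway lists by counts and their 3 largest differences each way. Alternatives were other scalings, pseudocount 0.1, other filters, the fit without or with a pool block, and leaving out pools.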

Additional observations from a re-analysis of the deposited data

Results flagged for a closer look

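For the 21 members described in full, each of the 4 groups of 4 libraries was searched for 1 library far from the other 3, which made 84 groups. Chance alone gives such a flag in about 1 of 20 groups, and 4 were found, all in IP libraries. Plxnb3 in female IP was at 2.58 scaled TPM in pool 2 and at 0.661 to 0.892 in the other 3 pools. That library also had the highest summed satellite glia markers in IP (340 scaled TPM), and their part in this value was not tested. Ntn1 in male IP was at 0.413 in pool 4, below 0.743 to 0.806 in the others. Nrp1 in male IP was at 18.6 in pool 2, below 22.6 to 23.2 in the others. Unc5c in male IP was at 3.73 in pool 4, above 2.57 to 2.75 in the others.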

How the results depend on the processing

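The scaling between fractions had the largest effect on the counts. In IP against IN 12 members were called higher and 37 lower. These counts were 15 and 37 with deposited TPM centred on the median gene, 15 and 31 with quantile normalization, 10 and 40 with TPM rescaled over nuclear protein-coding genes, and 13 and 48 of 67 members with no filter. Of all calls 61.1% were higher with quantile normalization, 35.1% with rescaling over protein-coding genes and 32.8% with no filter, against 51.0%, and the median gene was shifted by 0.15 with quantile normalization and by -0.17 with the rescaling. Without any scaling 42 were higher and 5 lower in both sexes together. Female pools then had 40 higher and 1 lower, and male pools 42 higher and 4 lower. In male pools the rescaling left 7 called higher. The 31 members whose sign turned positive without scaling, where the median gene stood at 1.84, had log2 differences of Ntn4 0.16, Epha10 0.17, Sema4g 0.18, Epha4 0.20, Sema6a 0.26, Sema6b 0.43, Sema3d 0.46, Plxnb1 0.63, Efnb2 0.64, Epha7 0.67, Efna3 0.69, Sema7a 0.72, Robo1 0.73, Ephb2 0.77, Unc5d 0.90, Unc5c 1.11, Plxnb2 1.21, Epha6 1.23, Plxna1 1.29, Sema3e 1.32, Unc5a 1.33, Sema4c 1.37, Sema5a 1.42, Unc5b 1.45, Sema6c 1.47, Efna5 1.47, Sema3c 1.48, Efnb1 1.55, Sema3f 1.77, Nrp2 1.84 and Nrp1 2.02. With centring, Efna2 was at -0.76, Nrp1 at 0.24 and Nrp2 at 0.059. With quantile normalization, Unc5a was at 0.13, Unc5b at 0.45, Unc5d at 0.17 and Sema6d at -0.027. With the rescaling, Ephb6 was at -0.056, Efna2 at -0.040, Plxna3 at -0.016 and Sema6d at -0.15. For these reversals the cause was not tested.

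Leaving out 1 pool at a time gave 11 to 12 higher and 36 to 37 lower in both sexes, 9 to 11 and 31 to 35 in female pools, and 9 to 11 and 31 to 34 in male pools. Unc5b, which was not called, then ranged from -0.030 to 0.020, with positive values of 0.000624, 0.00305 and 0.0199. Without the replicate block the counts stayed at 12 and 37, and no call of a member in both sexes changed. The block made no member differ between female and male pools (0 in IP and 0 in IN), and the same holds for every other alternative run. Apart from the unscaled values, 10 of the 12 higher and 29 of the 37 lower members kept their call in each of the 16 alternatives that tested them. TPM keep no counts, so no counting interval can be given for low values such as those of Dcc, and 4 pools per sex limit what can be seen between the sexes.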
